A study of Homo sapiens with 20 samples.

Results

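The comparison described here asks what Dyngo-4a adds to prexasertib in IMR-32 cells. It sets the 4 libraries of cells given both compounds against the 4 libraries of cells given prexasertib alone, 8 of the 20 libraries in the study. IMR-32 is a human neuroblastoma cell line with an amplified MYCN gene. All cells were grown in T25 flasks, treated for 24 h and profiled by QuantSeq, a method that reads the 3′ ends of polyadenylated transcripts. The prexasertib group received 2 nM prexasertib. The combination group received prexasertib and Dyngo-4a, at doses that the labels do not state for the mixture. The other groups, with 4 libraries each, received the solvent DMSO, 1 µM of Dyngo-4a alone (called the low dose) or 2.26 µM of it (called the high dose), and they serve here only to set the change beside that of Dyngo-4a without prexasertib. The labels place every library in the same batch. They leave unsaid if the replicates are separate cultures, and the p-values therefore measure only the spread between these libraries, which may be technical. Every library comes from the same cell line.

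Prexasertib inhibits CHK1, the kinase that acts below ATR to hold cells with stalled replication forks out of mitosis and to limit origin firing. Dyngo-4a is a small molecule developed to block dynamin, the GTPase that pinches off clathrin-coated vesicles, and the title of the study names joint inhibition of CHK1 and of MUS81, a nuclease that cuts stalled forks. When DNA is damaged, p53 escapes its ligase MDM2 and switches on genes for cell cycle arrest (CDKN1A), DNA repair (DDB2), metabolism (FDXR) and cell death (BBC3, PMAIP1, FAS). The ATF4 branch, also known as the integrated stress response, answers amino acid shortage and other stresses, and heat shock factors answer unfolded protein.

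The libraries held 4386254 to 6017433 counts in the combination group and 4869732 to 6537843 in the prexasertib group, so that 3 counts equal 0.459 to 0.684 CPM (counts scaled to a library of 1000000 counts) in these 8 libraries. Levels are given below in CPM after trimmed-mean scaling, and changes as the log2 ratio of combination over prexasertib with its standard error. Defining genes of adrenergic neuroblastoma were high in all 8 libraries (HAND2 695 to 861 CPM, GATA3 1055 to 1217 CPM), although TH was near the limit of counting at 0.594 to 1.82 CPM. PRRX1, SOX10 and CD3E, which mark mesenchymal, Schwann and T cells, had 0 counts in all 8. SNAI2, also a mesenchymal marker, was at 6.58 to 12.7 CPM and COL1A1 at 23.0 to 46.1 CPM. The nuclear RNA MALAT1 held 1.42% ± 0.357 (SD, n = 4) of counts with prexasertib and 2.33% ± 0.538 (SD, n = 4) with the combination (two-sided exact permutation p = 0.0286, the smallest that 4 against 4 allows). The highest prexasertib library, at 1.73%, lay just below the lowest combination library, at 1.74%. Replicates 1 and 3 held more than 2 and 4 with prexasertib (1.72% and 1.73% against 1.04% and 1.18%). The same held with the combination (2.63% and 2.92% against 2.05% and 1.74%). The permutation does not take this split into account. Genes with at least 1 count numbered 18937 to 19304 with prexasertib and 19428 to 19951 with the combination. At matched depth these ranges overlapped, at 18478 to 18943 and 18884 to 19951 (two-sided exact permutation p = 0.0857). The part of these measures in the results was not tested. Bulk libraries cannot tell fewer cells of a kind from less RNA per cell.

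Adding Dyngo-4a to prexasertib was followed mainly by rises. Of 13729 genes that passed the low-count filter, 329 were higher (2.4%) and 143 lower (1.04%) at a Benjamini-Hochberg adjusted p below 0.05 in edgeR's quasi-likelihood test. Among these 472 genes (3.44% of those tested), 136 rose at least 2-fold (0.991%) and 2 fell at least 2-fold (0.0146%). The 2 groups of libraries did not overlap in 432 of the 472, so that 3.15% of all tested genes were both called and without overlap. Called or not, 730 of all tested genes (5.32%) had every combination library above every prexasertib library, and 623 had every one below. Leaving out the first combination library lowered the count of called genes to 309. Same-numbered combination and prexasertib libraries deviated together, and a fit blocked on replicate number gave 1374 calls, of which 695 were higher and 679 lower. With replicates 1 and 3 alone 308 genes were higher and 180 lower, and with replicates 2 and 4 alone 97 were higher and 7 lower. The first and the third combination libraries lay farther from the prexasertib libraries along the first principal component, at scores of 30.1 and 24.9, than the second and the fourth, at 10.4 and 9.6. The prexasertib libraries lay between −25.2 and −14.3. Along the second component, with 20.3% of the variance, replicates 1 and 3 of both groups had positive scores and replicates 2 and 4 negative ones. Of the 329 genes called higher, 309 would also have passed the low-count filter without the combination libraries.

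**Figure D1:**
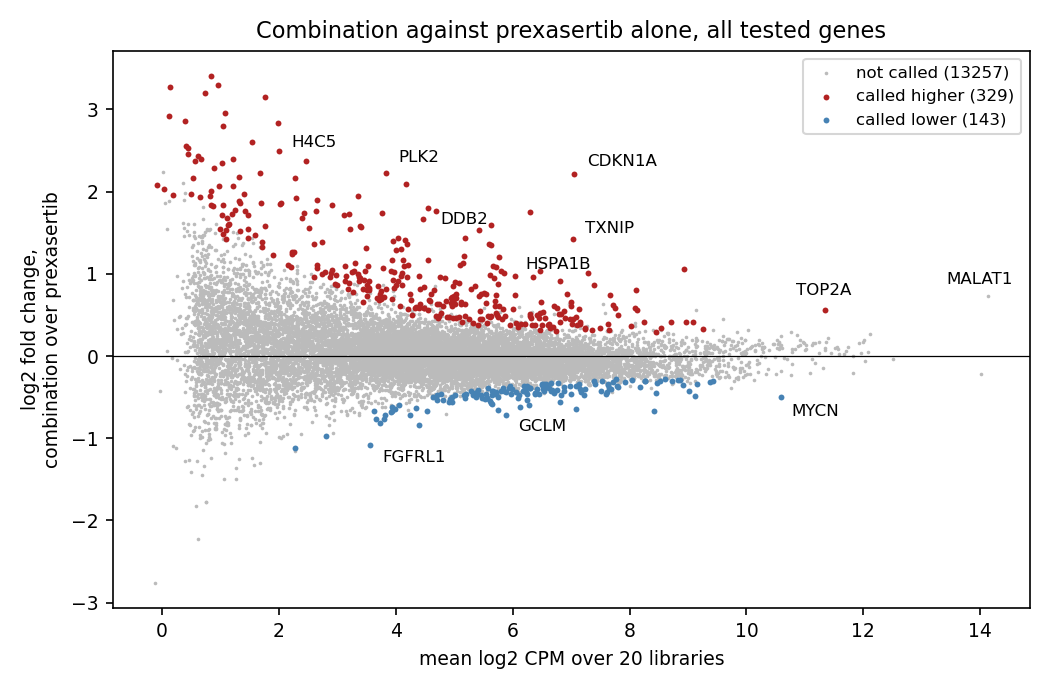
Every tested gene by its mean level (log2 CPM, x axis) and its log2 ratio of combination over prexasertib (y axis), with the 329 genes called higher and the 143 called lower in colour. The rises reach farther from zero than the falls, of which 2 exceed 2-fold.

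Nearly all tested genes of the p53 target list rose. This and the other gene lists were written from general knowledge with earlier results of these data known. Their counts may therefore partly reflect the choice of members. Of 31 listed targets 30 were tested, all of which would have passed the low-count filter without the combination libraries. Of these 27 rose and none fell (90% called, against 3.44% of all tested genes). The median log2 ratio was 1.23, against 0.008 over all tested genes. All 30 had a positive ratio, against 51.4% of all tested genes. In 28 the lowest combination library lay above the highest prexasertib library, as in 5.32% of all tested genes. Leaving out any single library left 26 to 28 called, and the pairs of replicates alone gave 26 (replicates 1 and 3) and 25 (replicates 2 and 4).

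CDKN1A, which encodes the cyclin-dependent kinase inhibitor p21 that arrests the cell cycle, stood at 95.4, 87.8, 79.2 and 105 CPM in the prexasertib libraries and at 444, 450, 385 and 421 CPM in the combination libraries. Every combination library was thus far above every prexasertib library, a 4.63-fold rise (log2 2.21 ± 0.18, edgeR adjusted p = 1.4e-07). With replicates 1 and 3 alone its adjusted p was 0.053. PLK2, a polo-like kinase induced by damage, went from 12.5, 9.5, 8.91 and 11 CPM to 53.7, 41.7, 52.4 and 49.5 CPM (log2 2.23 ± 0.17, adjusted p = 8.9e-12). Its relative PLK3 rose by a log2 ratio of 1.94 ± 0.21, and the antiproliferative factor BTG2 by 1.74 ± 0.18.

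Repair and metabolic targets rose too. DDB2, the damage sensor of nucleotide excision repair, measured 13.9, 16.4, 12.3 and 16.6 CPM with prexasertib and 63.0, 51.2, 47.9 and 46.2 CPM with the combination (log2 1.81 ± 0.14, edgeR adjusted p = 1.2e-11). FDXR, the mitochondrial ferredoxin reductase, measured 11.3, 11.2, 9.71 and 13.6 CPM and then 56.6, 40.7, 59.2 and 40.6 CPM (log2 2.09 ± 0.19, adjusted p = 4.9e-10). For both genes the libraries were widely separated, and the first and the third combination libraries were the highest for FDXR. PHLDA3, an inhibitor of AKT signalling, rose by a log2 ratio of 1.66.

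Death genes rose by unequal amounts. BBC3, which encodes the BH3-only protein PUMA, was at 43.2, 43.8, 29.9 and 32.4 CPM with prexasertib and at 119, 136, 113 and 83.6 CPM with the combination (log2 1.60 ± 0.15, edgeR adjusted p = 9e-09). PMAIP1, encoding the BH3-only protein NOXA, rose by a log2 ratio of 0.66 ± 0.13, from 71.5 to 86.8 CPM up to 115 to 137 CPM. Of 13 tested members of the BCL2 family, BBC3 and PMAIP1 were the 2 called (15.4%, against 3.44% of all tested genes). The death receptor FAS was at 1.30 to 2.04 CPM and then at 4.31 to 7.62 CPM (log2 1.97 ± 0.38, adjusted p = 0.0011), a low level at which replicates 2 and 4 alone gave an adjusted p of 0.19. The apoptosis effector BAX had a log2 ratio of 0.55 and overlapping libraries (adjusted p = 0.095, and 0.0022 with the replicate block).

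MDM2, the ligase that p53 induces to restrain itself, rose from 191, 178, 173 and 168 CPM to 345, 270, 304 and 264 CPM (log2 0.74 ± 0.10, edgeR adjusted p = 2.9e-06). It was already abundant under prexasertib, and its ratio was below the median of the list. The cyclin gene CCNG1 had a log2 ratio of 0.60 (adjusted p = 0.066, and 6.8e-07 with the block). CCNG1 and BAX were among the 3 targets that did not pass the test.

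PURPL, a long noncoding RNA of the p53 pathway, had the largest ratio of the list. It was at 4.91, 3.91, 4.36 and 2.35 CPM with prexasertib and at 26.4, 16.9, 23.8 and 13.1 CPM with the combination (log2 2.37 ± 0.26, edgeR adjusted p = 3.8e-08). Its promoter is printed here because it was the only 1 of 25 matched p53-list promoters that held a full p53 response element. The p53 response element was searched as a pair of its standard half-sites with a spacer of up to 13 bases. Promoters here are the RefSeq windows on GRCh38.p14 from 250 bases before to 50 bases after a gene's start. The element occurred in 4 of the 10002 tested genes with such a window (0.04%). A match describes the letters, not binding, and most p53 sites known from other work lie outside such short windows. The stretch lies at chr5:27472135-27472214 on the plus strand, with the element in capitals.
PURPL: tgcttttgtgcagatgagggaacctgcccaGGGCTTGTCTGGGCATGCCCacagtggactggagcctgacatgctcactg

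**Figure D2:**
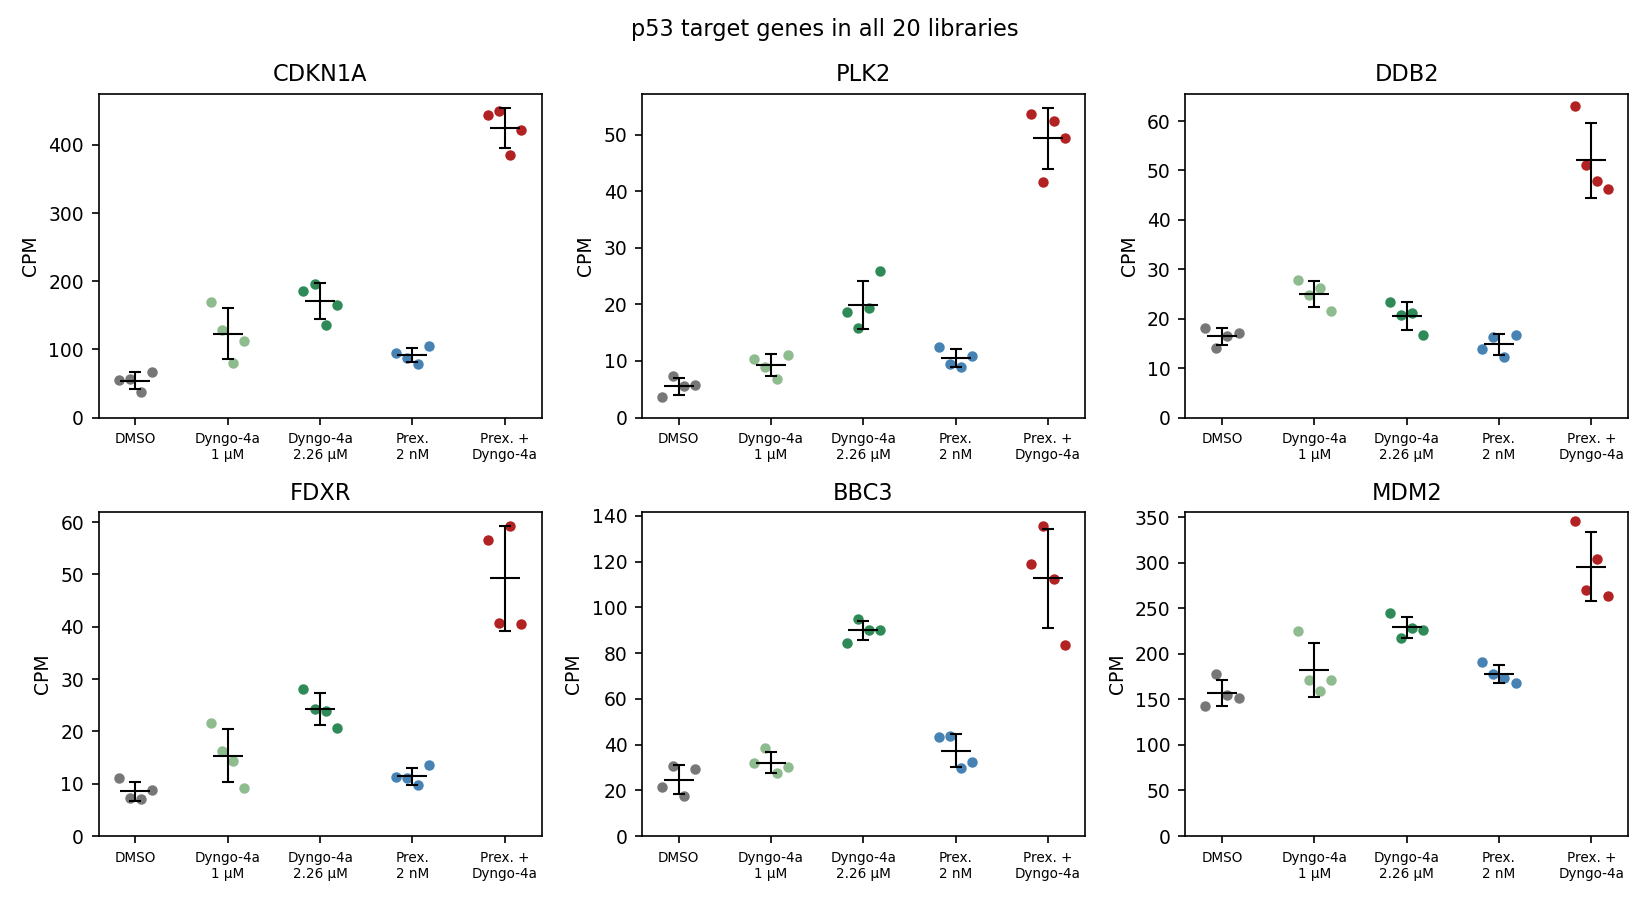
Level in CPM (y axis, from 0) of CDKN1A, PLK2, DDB2, FDXR, BBC3 and MDM2 in all 20 libraries by group (x axis), 1 point per library with the group mean and SD (n = 4). In each panel all 4 combination points lie above all 4 prexasertib points.

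Some of the clearest rises lay outside the p53 list. METTL7A, a methyltransferase of lipid droplets and the endoplasmic reticulum, rose from 47.5 to 61.4 CPM up to 161 to 198 CPM (log2 1.75 ± 0.11, edgeR adjusted p = 3.5e-14). STK17A, a kinase of the death-associated protein kinase family, rose from 14.7 to 20.5 CPM up to 50.8 to 67.4 CPM (log2 1.77 ± 0.13, adjusted p = 5.1e-12). ARC, an immediate early gene of neurons, rose by a log2 ratio of 1.58, and TXNIP, a glucose-responsive binding partner of thioredoxin, by 1.42.

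Part of the ATF4 list rose, and whether ATF4, p53 or another factor raised these genes was not tested. Of its 28 tested genes 6 rose and 1 fell (25% called, against 3.44% of all tested genes). The median log2 ratio was 0.17, and ASNS, CHAC1 and SLC7A11 were among those that did not pass the test. SESN2, a sestrin that restrains mTORC1, went from 27.8, 21.1, 26.9 and 20.8 CPM to 70.6, 78.4, 53.8 and 58.0 CPM (log2 1.44 ± 0.14, edgeR adjusted p = 1.8e-09). The transcription factor ATF3 rose by a log2 ratio of 1.44, the stress cytokine GDF15 by 1.35, the mTORC1 inhibitor DDIT4 by 1.09 and ATF5 by 0.82. DDIT3, which encodes CHOP, rose by 0.61 (adjusted p = 0.013), a call lost without the first prexasertib library (0.053) or the third combination library (0.084).

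ASNS, asparagine synthetase and a classical ATF4 target, was at 1.84, 2.61, 3.57 and 4.07 CPM with prexasertib and at 3.77, 3.79, 3.63 and 2.18 CPM with the combination (log2 0.12 ± 0.32, edgeR adjusted p = 0.9). Its libraries overlapped. CHAC1, which degrades glutathione, had a log2 ratio of 0.59 (adjusted p = 0.27), the cystine transporter SLC7A11 had 0.22 (adjusted p = 0.55) and ATF4 itself had −0.01 (adjusted p = 0.99). PYCR1, of proline synthesis, was called lower (log2 −0.38, adjusted p = 0.033), but the call was lost without the second, the third or the fourth prexasertib library or the first, the second or the third combination library (adjusted p 0.058 to 0.17). None of 20 tested aminoacyl-tRNA synthetases and none of 15 tested amino acid transporters was called by edgeR, DESeq2 or limma-voom, with 6 and 1 at an unadjusted p below 0.05 in edgeR. With the replicate block 3 synthetases were called lower, and replicates 1 and 3 alone gave 1 transporter called lower.

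Members of the heat shock list were called in both directions. Of 20 tested members 3 rose and 2 fell (25% called, against 3.44% of all tested genes), and 15 had a negative ratio. HSPA1B, an inducible HSP70, was at 87.2, 108, 97.5 and 65.0 CPM with prexasertib and at 174, 149, 219 and 164 CPM with the combination (log2 0.98 ± 0.13, edgeR adjusted p = 1.8e-06). DNAJB1, its HSP40 partner, rose from 81.3 to 96.4 CPM up to 115 to 141 CPM (log2 0.51 ± 0.12, adjusted p = 0.009), and HSPA4L, an HSP110-type cochaperone, rose by a log2 ratio of 1.03 ± 0.10. HSPA1A, nearly identical in sequence to HSPA1B, had 0, 1, 1 and 1 counts with prexasertib and 8, 9, 30 and 23 with the combination, so how reads were divided between them is uncertain.

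HSPH1 (log2 −0.34, edgeR adjusted p = 0.025) and FKBP4 (log2 −0.38, adjusted p = 0.027), cochaperones of HSP70 and HSP90, were the 2 called lower. Leaving out 1 library ended the call of HSPH1 for the first, the second or the third prexasertib library and the first or the second combination library (0.06 to 0.087). It ended that of FKBP4 for the second or the fourth prexasertib library and the first or the third combination library (0.062 to 0.16). With the block 9 members were called lower and 3 higher.

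HSPA6, an HSP70 gene that is nearly silent in unstressed cells, was not in the list and was chosen after its values were seen. It was at 0.614, 2.05, 0.594 and 1.10 CPM with prexasertib and at 11.3, 9.13, 7.94 and 4.17 CPM with the combination (log2 2.85 ± 0.50, edgeR adjusted p = 0.00021). With replicates 2 and 4 alone its adjusted p was 0.14. The levels of HSPA6 with prexasertib were near the limit of counting. It is not reported here if the gene would have passed the low-count filter without the combination libraries, so its test may rest on the group where it is high. Its promoter is shown because it was the only one among 251 promoters of genes called higher that held the heat shock element, searched on both strands as an inverted arrangement of GAA and TTC triplets with spacers of N. That motif thus occurred in 0.398% of the promoters of genes called higher, a share near that of all tested promoters (29 of 10002, 0.29%). The stretch lies at chr1:161524436-161524508 on the plus strand of GRCh38.p14, from RefSeq, with the motif in capitals.
HSPA6: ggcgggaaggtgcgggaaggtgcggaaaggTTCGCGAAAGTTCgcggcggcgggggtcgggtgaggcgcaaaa

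Some genes of mitosis rose, by smaller amounts. Of 35 tested genes of the mitosis list, 11 rose and none fell (31.4% called, against 3.44% of all tested genes). A positive ratio was found in 33, against 51.4% of all tested genes, and the median log2 ratio was 0.25. TOP2A, the topoisomerase that untangles sister chromatids, went from 2780, 2695, 2572 and 2573 CPM to 4250, 3995, 3844 and 3602 CPM (log2 0.56 ± 0.08, edgeR adjusted p = 1.4e-05). KIF2C, a kinesin that corrects spindle attachments, rose from 73.5 to 85.5 CPM up to 106 to 118 CPM (log2 0.49 ± 0.09, adjusted p = 0.00059).

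Other mitotic calls were less secure. CENPE, the kinetochore motor, had a log2 ratio of 0.42 (edgeR adjusted p = 0.0089), and its call was lost without the fourth prexasertib library (0.055) or the first combination library (0.063). UBE2C, the ubiquitin-conjugating enzyme of the anaphase-promoting complex, had a log2 ratio of 0.59 (adjusted p = 0.0094, and 0.052 without the first prexasertib library). The number of mitotic genes called was 4 without the first prexasertib library, 6 without the third prexasertib, the first combination or the fourth combination library, and 7 without the fourth prexasertib library. It was 17 with the block and 2 with replicates 2 and 4 alone. CDC25C, the phosphatase that starts mitosis and is restrained by CHK1, was the 1 of 22 tested genes of the ATR and CHK1 list to be called (log2 0.48, adjusted p = 0.04), a share near that of all tested genes (4.55% against 3.44%), and with the block 1 gene of the list was called higher and 1 lower. The call of CDC25C was lost without any of 6 of the 8 libraries, all but the first prexasertib and the fourth combination library (0.069 to 0.16).

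Some histone genes of low abundance rose, and the most abundant one was not called. Replication-dependent histone genes, which are made in S phase and whose messages normally lack a poly(A) tail, number 65 in the table. Of the 32 that would have passed the filter without the combination libraries, 10 rose and none fell, with a median log2 ratio of 0.68. That is 31.2% called, against 3.44% of all tested genes. This class and that of small nuclear RNAs below were formed after the values were seen. In the separate histone list 7 of 19 tested genes rose, and 6 of the 17 that would have passed that filter. H4C5 went from 4.30, 3.54, 3.76 and 2.98 CPM to 22.9, 21.7, 19.1 and 18.5 CPM (log2 2.50 ± 0.29, edgeR adjusted p = 1.3e-07). H2BC8 went from 8.19, 9.87, 8.72 and 7.36 CPM to 26.6, 28.9, 35 and 22.7 CPM (log2 1.73 ± 0.19, adjusted p = 3.6e-08). In both genes the groups were separated by more than the spread within either. H2AC11 rose by a log2 ratio of 2.23, H2BC21 by 1.67 and H2BC5 by 1.11.

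H4C3, which held most histone counts, averaged 3220 CPM with prexasertib and 3290 CPM with the combination (log2 0.03, edgeR adjusted p = 0.97). Summed over all 65 genes, the level was 3779 to 4163 CPM with prexasertib and 3153 to 4974 CPM with the combination, and these ranges overlap. Histone genes are a multigene family, so the division of reads among near-identical copies is uncertain. Of 48 small nuclear RNAs, also without a normal poly(A) tail, that would have passed the filter without the combination libraries, 11 rose and none fell. That is 22.9%, against 3.44% of all tested genes. Of the 48, 29 had a positive and 19 a negative ratio, with a median of 0.14. Summed over all small nuclear RNA genes, the level was 1281 to 1846 CPM with prexasertib and 1293 to 2156 CPM with the combination, and these ranges overlap. RNVU1-31, a variant U1 RNA from a family of near-identical copies, was at 2.66, 2.61, 2.18 and 2.66 CPM with prexasertib and at 24.0, 23.8, 14.5 and 10.9 CPM with the combination (log2 2.84 ± 0.33, adjusted p = 1.5e-07). RNU4-1 had a log2 ratio of 2.40 ± 0.38 (adjusted p = 5.1e-05).

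The box CCAAT, read by the factor NF-Y, was searched on both strands and found in 34 of 39 matched histone promoters (87.2%), against 37.4% of all tested promoters and 51.4% of those of genes called higher. H2BC8 is shown because it is the histone gene among the 12 largest rises and holds 3 such boxes, in capitals. The stretch lies at chr6:26216732-26216886 of GRCh38.p14, from RefSeq, read on the minus strand.
H2BC8: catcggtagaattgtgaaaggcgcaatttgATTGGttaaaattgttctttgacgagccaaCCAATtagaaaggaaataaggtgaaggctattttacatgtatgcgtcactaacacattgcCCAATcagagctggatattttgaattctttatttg

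Some genes of DNA replication and of ribosome production fell. Of 36 tested DNA replication genes 6 fell and none rose (16.7% called, against 3.44% of all tested genes), with a median log2 ratio of −0.20. MCM5, a subunit of the replicative helicase, went from 81.9, 80.3, 76.9 and 79.4 CPM to 51.7, 62.0, 52.0 and 57.7 CPM (log2 −0.51 ± 0.10, edgeR adjusted p = 0.0014). All 4 combination libraries lay below all 4 prexasertib libraries, although replicates 2 and 4 alone gave an adjusted p of 0.21. The other called subunits depended on single libraries. MCM4 (log2 −0.37) lost its call without the third prexasertib or the first or the third combination library (0.068 to 0.12). MCM6 (log2 −0.38) lost it without the first prexasertib or the first, the second or the third combination library (0.052 to 0.084). MCM7 (log2 −0.31) lost it without the first, the second or the fourth prexasertib or the first or the third combination library (0.06 to 0.15). In the list as a whole 1 gene was called without the third combination library and 3 without the first prexasertib, the third prexasertib or the first combination library. With the block 12 fell and 2 rose, and replicates 2 and 4 alone gave no call.

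E2F1, the transcription factor that drives S-phase genes, measured 131, 116, 126 and 118 CPM with prexasertib and 85.0, 99.8, 83.8 and 84.3 CPM with the combination (log2 −0.48 ± 0.09, edgeR adjusted p = 0.00089). It was the 1 called among 17 tested E2F factors and G1/S cyclins (5.88%, against 3.44% of all tested genes), and with the block 4 fell and 1 rose. DTL, the adaptor of a ubiquitin ligase active in S phase, had a log2 ratio of −0.47 (adjusted p = 0.00075). NBN, of the MRN break-sensing complex, had a log2 ratio of −0.42 (adjusted p = 0.0074) and was the 1 called among 28 tested genes of fork nucleases and homologous recombination, a share near that of all tested genes (3.57% against 3.44%), and 3 fell with the block.

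Of 25 tested ribosome biogenesis genes 6 fell and none rose (24% called, against 3.44% of all tested genes). A negative ratio was found in 24 of the 25, and the median was −0.24. UTP20, a component of the small-subunit processome, went from 147, 139, 149 and 122 CPM to 97.2, 90.5, 96.9 and 94.3 CPM (log2 −0.56 ± 0.10, edgeR adjusted p = 0.00021). RRP12, needed for export of ribosomal subunits, had a log2 ratio of −0.67 (adjusted p = 0.0028). RRP9 (log2 −0.51) lost its call without the fourth prexasertib library (0.059) or the third combination library (0.054). The count was 2 without the third combination library, 3 without the second prexasertib, the third prexasertib or the first combination library, 16 with the block and 0 with replicates 2 and 4 alone. None of 35 tested cytosolic ribosomal protein genes was called by edgeR, with 4 at an unadjusted p below 0.05, while DESeq2 called 2 higher, limma-voom 0 and the fit with the block 7 higher. Unlike the biogenesis genes, 33 of these 35 had a positive ratio (against 51.4% of all tested genes), with a median of 0.12.

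MYCN, the amplified driver of this tumour type at chr2:15940564-15947007, was at 1698, 1972, 1666 and 1897 CPM with prexasertib and at 1151, 1279, 1205 and 1480 CPM with the combination. The highest combination library lay below the lowest prexasertib library (log2 −0.50 ± 0.09, edgeR adjusted p = 0.00051). Among 23 tested adrenergic core transcription factors, 3 fell and none rose (13% called, against 3.44% of all tested genes). MYCN and HAND1 (log2 −0.43, edgeR adjusted p = 0.003) were among the 3 called. Their number was 2 without the second or the third prexasertib library or the first or the second combination library. With the block 5 fell and 1 rose, and replicates 2 and 4 alone gave 1 call.

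The largest falls by the naming rule included signalling receptors. FGFRL1, a fibroblast growth factor receptor without a kinase domain, went from 17.8, 17.3, 22.6 and 16.3 CPM to 9.10, 9.13, 9.31 and 7.25 CPM (log2 −1.09 ± 0.22, edgeR adjusted p = 0.0021). The receptor kinase KIT (log2 −0.76) and the growth factor binding protein IGFBP5 (log2 −0.67) were the other 2 called of 20 tested genes in the receptor kinase list. Of that list 15% was called, against 3.44% of all tested genes. KIT lost its call without the third combination library (0.054), and IGFBP5 without the third prexasertib (0.065), the first combination (0.062) or the fourth combination library (0.053). With the block 1 further gene of this list was called higher. SYT2, a synaptic vesicle calcium sensor, fell by 0.84 on the log2 scale, SMYD5 by 0.81 and IGDCC3 by 0.66.

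GCLM, the modifier subunit of glutamate-cysteine ligase in the glutathione pathway, measured 95.2, 98.0, 104 and 84.0 CPM with prexasertib and 53.5, 56.5, 59.5 and 62.4 CPM with the combination (log2 −0.71 ± 0.11, edgeR adjusted p = 2.7e-05). HMOX1, heme oxygenase, had a log2 ratio of −0.97 (adjusted p = 0.013, lost at 0.051 without the first prexasertib and at 0.08 without the second combination library). These were the 2 called of 19 tested NRF2 targets (10.5%, against 3.44% of all tested genes), and 4 fell with the block.

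The letters CACGTG, an E-box read by MYC family proteins among others, were searched in the same RefSeq windows. They occurred in 32 of 111 promoters of genes called lower (28.8%), in 18 of 251 of genes called higher (7.17%) and in 1038 of all 10002 (10.4%). This is a description of letters with no test. UTP20 and FGFRL1 are shown as a ribosome biogenesis gene and as the leading fall, with the E-box in capitals. The stretches lie at chr12:101280065-101280130 and chr4:1012406-1012471, both on the plus strand of GRCh38.p14.
UTP20: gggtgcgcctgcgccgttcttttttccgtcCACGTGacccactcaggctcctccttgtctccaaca
FGFRL1: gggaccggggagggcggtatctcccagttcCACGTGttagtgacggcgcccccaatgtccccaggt

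**Figure D3:**
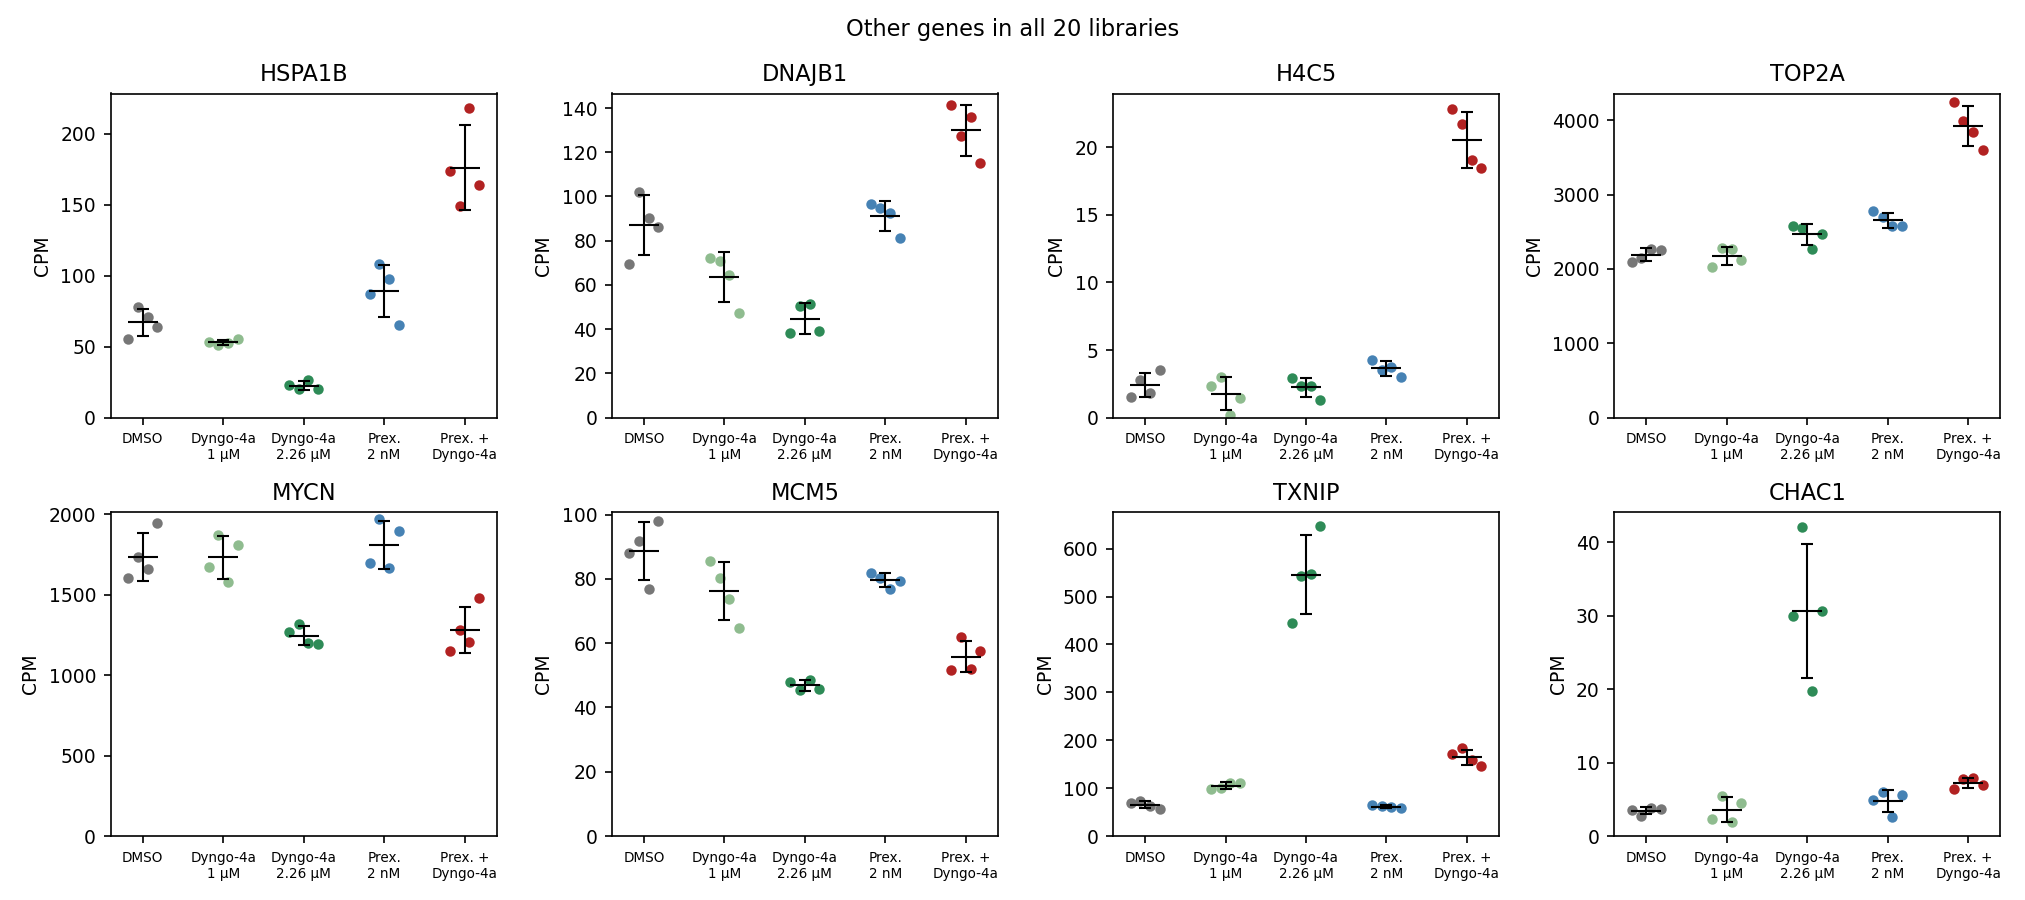
Level in CPM (y axis, from 0) of HSPA1B, DNAJB1, H4C5, TOP2A, MYCN, MCM5, TXNIP and CHAC1 in all 20 libraries by group (x axis), 1 point per library with the group mean and SD (n = 4). HSPA1B, DNAJB1, H4C5 and TOP2A are highest with the combination, MYCN and MCM5 are lower with the combination than with prexasertib, and TXNIP and CHAC1 are highest with 2.26 µM Dyngo-4a.

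Hypoxia and glycolysis genes rose in part. Of 29 tested members 10 rose and none fell (34.5% called, against 3.44% of all tested genes), with a median log2 ratio of 0.29. FAM162A, a mitochondrial protein induced by hypoxia, went from 17.8 to 34.7 CPM up to 55.7 to 73.2 CPM (log2 1.37 ± 0.15, edgeR adjusted p = 1.9e-07). The aldolase ALDOC rose by a log2 ratio of 1.55, the glycolytic kinase PGK1 by 0.59 and the mitophagy receptor BNIP3 by 0.57. Replicates 2 and 4 alone gave 3 calls in this list, and with the block 15 rose and 2 fell. Without prexasertib, the low dose of Dyngo-4a gave the list a median of 0.22, with 6 called higher and 0 lower. The high dose gave 0.26, with 13 called higher and 3 lower. The change with prexasertib differed from the low-dose change in 0 members. It lay above the high-dose change in 1 member and below it in 2.

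Of 14 tested immediate early genes 6 rose and none fell (42.9% called, against 3.44% of all tested genes). Of the 12 that would have passed the filter without the combination libraries 5 rose. JUN rose from 55.7 to 77.9 CPM up to 126 to 136 CPM (log2 0.96 ± 0.15, edgeR adjusted p = 0.00013), and its relative JUND by a log2 ratio of 0.65. EGR1, a zinc finger factor, rose by 1.09, with an adjusted p of 0.41 in replicates 2 and 4 alone. Without the third combination library 4 of these genes were called. All 11 tested genes of the MAPK feedback list had a positive ratio (median 0.57), against 51.4% of all tested genes. The test called 2 of them (18.2%, against 3.44% of all tested genes). The receptor EPHA2 (log2 1.83) lost its call without the second (0.057) or the fourth prexasertib library (0.07). The phosphatase DUSP6 (log2 0.98) lost it without the first (0.06) or the third prexasertib library (0.072). The list had 1 call without any 1 of the 4 prexasertib libraries. With the block 5 were called, among them ETV5 (log2 0.87, adjusted p = 0.065 without and 0.0073 with the block).

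Of 13 tested nuclear noncoding RNAs 3 rose and none fell (23.1% called, against 3.44% of all tested genes). MEG3, an imprinted noncoding RNA, rose from 110 to 151 CPM up to 215 to 287 CPM (log2 0.87 ± 0.11, edgeR adjusted p = 8.6e-07), and NEAT1, the scaffold of paraspeckles, rose by a log2 ratio of 1.17. MALAT1 had a log2 ratio of 0.73 and missed the threshold (adjusted p = 0.092), which it passed with the block (0.0038), in DESeq2 (0.039) and in limma-voom (0.01). With the block 4 members of the list rose and 1 fell.

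**Figure D4:**
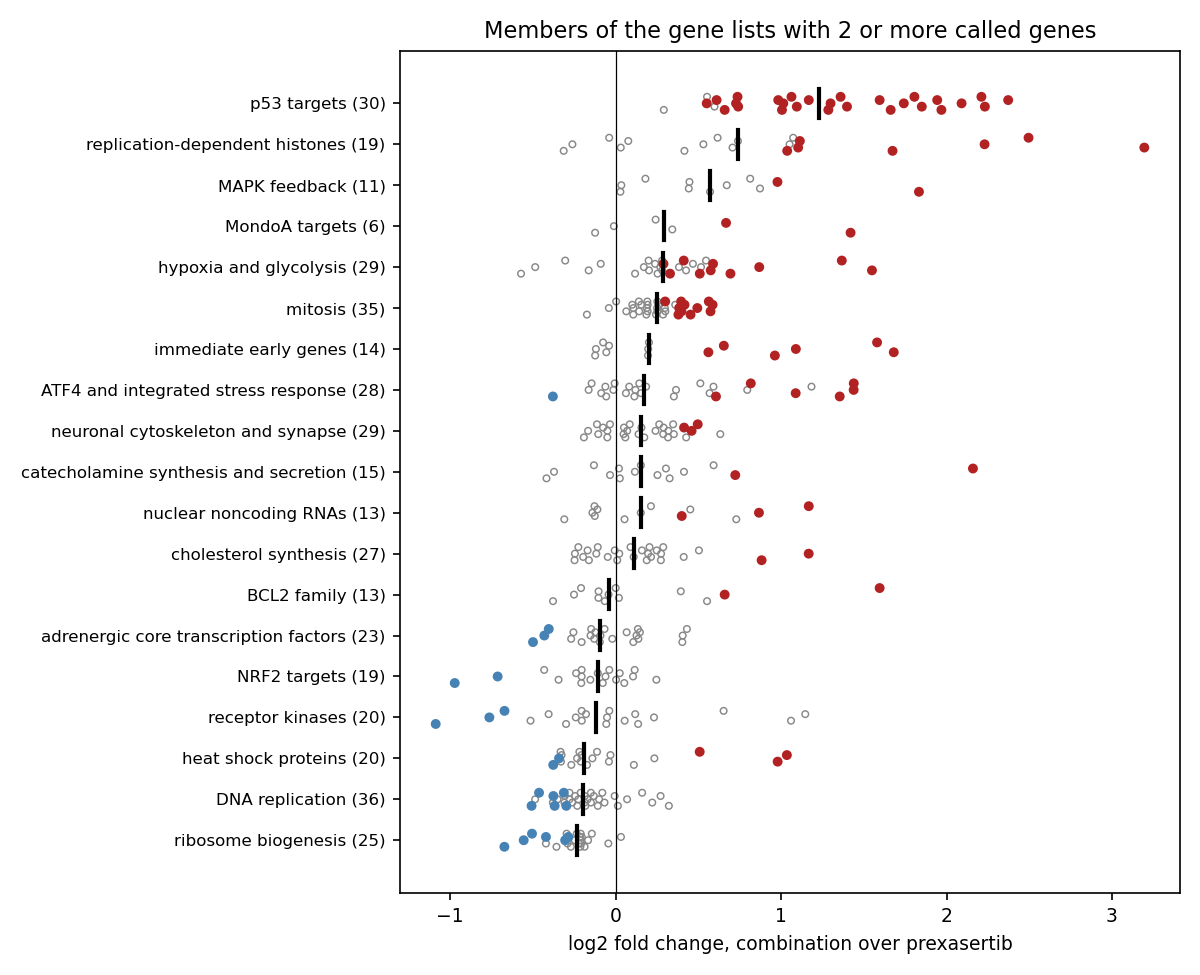
Log2 ratio of combination over prexasertib (x axis) of each tested member of the gene lists with at least 2 called genes (y axis, number of tested members in parentheses), with a black bar at the list's median. Filled points passed the test, red for higher and blue for lower. The p53 list has 27 of 30 members filled red, whereas DNA replication and ribosome biogenesis have 6 filled blue each and none red.

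The targets named by the study and the machinery of endocytosis did not pass the test. CHEK1, which encodes CHK1, was at 28.0 to 35.1 CPM with prexasertib and 27.7 to 39.7 CPM with the combination (log2 0.06 ± 0.15, edgeR adjusted p = 0.89). MUS81 was at 46.8 to 55.0 CPM and 44.8 to 51.7 CPM (log2 −0.14 ± 0.11, adjusted p = 0.61), and its partner EME1 had a log2 ratio of 0.22 (adjusted p = 0.53). The dynamin genes DNM1, DNM2 and DNM3 had log2 ratios of 0.12, 0.02 and 0.14. None of 36 tested genes of dynamin and clathrin endocytosis was called by edgeR, with a median of 0.02 and 6 at an unadjusted p below 0.05, while DESeq2 called 1 lower and limma-voom 1 higher. With the block 2 of these were called higher and 1 lower. None of 32 tested lysosomal genes was called by edgeR without the block, DESeq2 or limma-voom, with 6 at an unadjusted p below 0.05 in edgeR, and 2 were called lower with the block. Inhibition of a protein need not alter its message, so these levels do not check the treatments.

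Setting the change beside that of Dyngo-4a without prexasertib uses separate libraries, since neither comparison with DMSO shares one with the combination or prexasertib groups. Against DMSO the low dose gave 36 called genes (0.262%), 25 of them higher (0.182%). The high dose gave 3456 (25.2%), with 1715 higher (12.5%) and 1741 lower (12.7%). Of the 472 genes called here, 23 were called in the same direction at the low dose, which is 4.87% of the 472 and 63.9% of the 36. At the high dose 263 were called in the same direction (55.7% of the 472 and 7.61% of the 3456) and 14 in the opposite one. Across all 13729 genes the log2 ratios had a Pearson correlation of 0.257 with those of the low dose and 0.344 with those of the high dose, as a description over genes that are not independent.

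The difference between the changes was then tested gene by gene. The change with prexasertib differed from the low-dose change in 39 genes (0.284%), more positive in 37 (0.27%) and more negative in 2 (0.0146%), with 900 genes (6.56%) at an unadjusted p below 0.05. It differed from the high-dose change in 864 genes (6.29%), more positive in 445 (3.24%) and more negative in 419 (3.05%). The dose of Dyngo-4a in the combination is not given in the labels, so neither test isolates the presence of prexasertib from dose.

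Among p53 targets, 7 differed from the low-dose change and 4 from the high-dose change, all more positive. The list had a median log2 ratio of 0.44 at the low dose with 6 called and 0.79 at the high dose with 23 called. DDB2 averaged 16.4 CPM with DMSO, 25.1 with the low dose, 20.5 with the high dose, 14.8 with prexasertib and 52.1 with the combination. Its change exceeded the low-dose change by 1.21 (edgeR adjusted p = 0.0013) and the high-dose change by 1.5 (adjusted p = 9.8e-06) on the log2 scale. CDKN1A averaged 54.0, 123, 171, 91.7 and 425 CPM in the same order, and its excess over the low-dose change, 1.03, missed the threshold (adjusted p = 0.14, and 0.0016 with the block).

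In the heat shock list 11 of 20 genes lay above the high-dose change past the threshold, and in the ATF4 list 13 of 28 lay below it. HSPA1B averaged 67.1 CPM with DMSO, 53.1 with the low dose, 22.5 with the high dose, 89.5 with prexasertib and 176 with the combination. Its change exceeded that of the low dose by 1.31 (edgeR adjusted p = 0.00022) and that of the high dose by 2.55 (adjusted p = 8.4e-11), and DNAJB1 followed with 0.96 and 1.46. At the high dose itself 17 of the 20 heat shock genes fell. ASNS averaged 1.98, 2.62, 16.8, 3.02 and 3.34 CPM in that order of groups, so that its change lay 2.98 below the high-dose change on the log2 scale (adjusted p = 2.7e-05). At the high dose itself 25 of the 28 genes of the ATF4 list rose.

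TOP2A averaged 2191 CPM with DMSO, 2173 with the low dose, 2469 with the high dose, 2655 with prexasertib and 3923 with the combination. Its change exceeded the low-dose change by 0.57 (edgeR adjusted p = 0.011, and 0.052 without the first low-dose library), and 12 of the 35 mitosis genes exceeded the high-dose change, under which 1 rose and 8 fell. H4C5 averaged 2.40, 1.76, 2.24, 3.64 and 20.5 CPM, with a change 2.90 above the low-dose change (adjusted p = 0.0013). TXNIP averaged 65.8, 105, 545, 61.5 and 165 CPM, so that its change was 0.74 above the low-dose change and 1.64 below the high-dose change on the log2 scale. MYCN averaged 1735, 1732, 1246, 1808 and 1279 CPM, and its change differed from neither past the threshold (adjusted p = 0.1 and 0.95). With the block its change was more negative than that of the low dose (adjusted p = 8.6e-05).

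**Figure D5:**
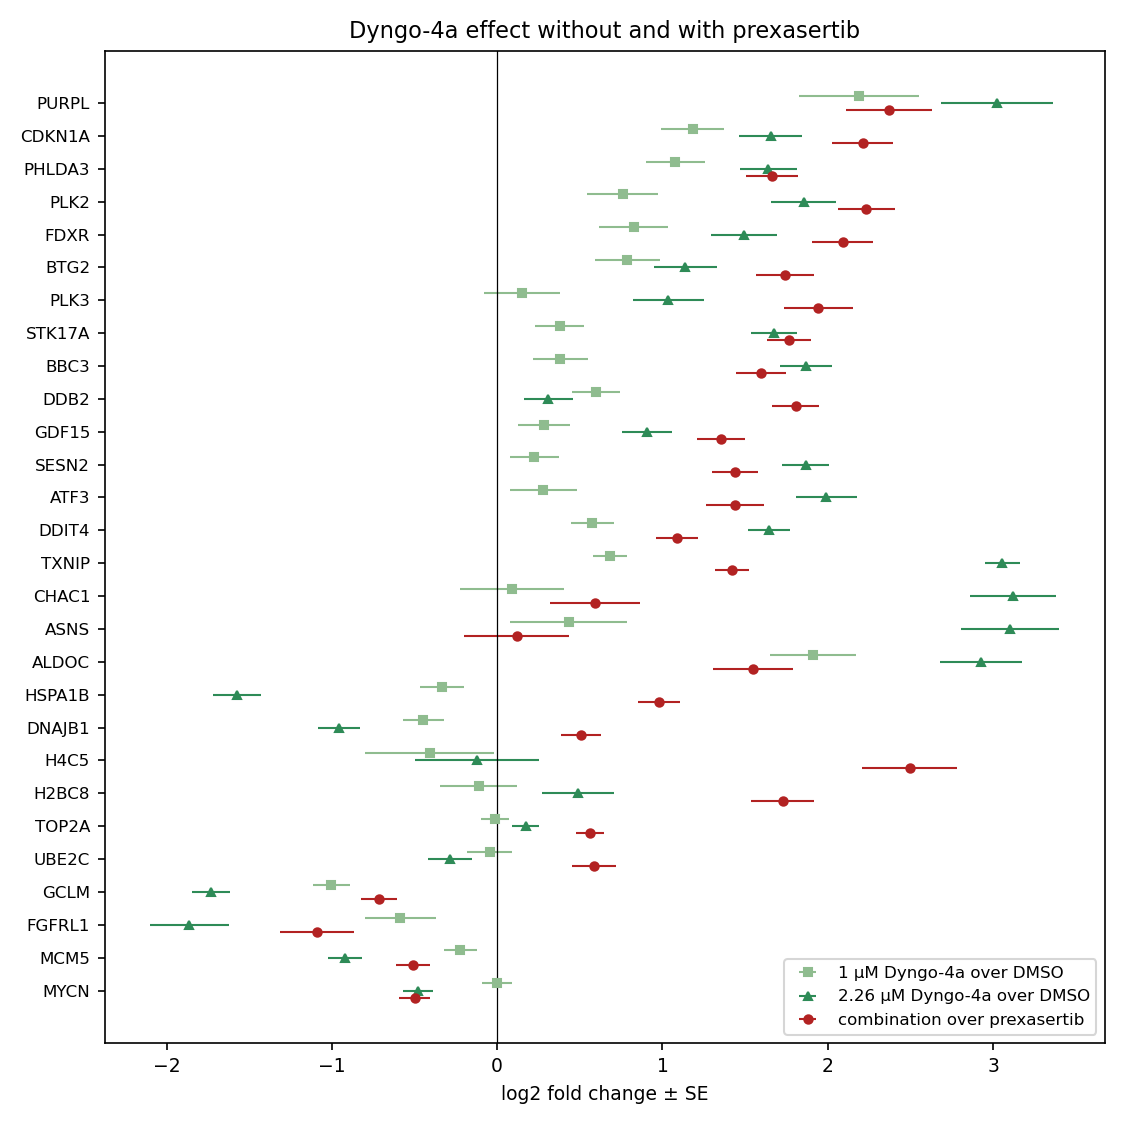
Log2 change with its standard error (x axis) of 28 genes (y axis) for 1 µM Dyngo-4a over DMSO, 2.26 µM Dyngo-4a over DMSO and the combination over prexasertib. HSPA1B lies at 0.98 with the combination and at −1.57 with the high dose, whereas ASNS lies at 0.12 and at 3.10.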

How the data were processed

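The submitters' processing notes name FastQC 0.11.7, STAR 2.7.2b, edgeR 3.36.0, limma 3.50.3 and the build GRCh38, and the labels' protocols describe QuantSeq 3′ libraries with molecular barcodes, sequenced as single reads. The values the authors deposited are raw counts per Ensembl gene, whole numbers in 1 table of 58787 genes and 20 libraries. The sources used here do not name the annotation release, the counting tool, its strand setting or the collapsing of barcodes. Library totals were 3960885 to 6537843 counts. Counting error is smallest for abundant genes, and at a few CPM it is a large part of the spread. No mitochondrial genes are in the table.

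Gene symbols, which the table pairs with no ID, came from a gene name table and GENCODE 29 and matched 41930 IDs, and 802 tested genes had no symbol. Genes were filtered with filterByExpr, leaving 13729, and scaled by the trimmed mean of M values. They were fitted in edgeR 4.0.16 (R 4.3.3) with robust quasi-likelihood, a term for each of the 5 groups and all 20 libraries sharing 1 estimate of the spread (15 residual degrees of freedom). Contrasts were the combination against prexasertib and that difference minus each Dyngo-4a dose against DMSO, two-sided, with Benjamini-Hochberg adjustment over all tested genes at 0.05. The script was tested on simulated data. Single values were compared by exact permutation over libraries.

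Replicate numbers in the labels were checked for pairing. Deviations from the group means of same-numbered combination and prexasertib libraries had correlations of 0.115 to 0.230, against −0.180 to 0.129 for differing numbers, so a fit with the number as a block is given for the comparison with prexasertib where it changes a call or moves a count by more than 1.5 times.

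Alternatives were other scaling, other low-count filters, DESeq2 1.42.0, limma-voom (limma 3.58.1), the block, a term that sets replicates 1 and 3 apart from 2 and 4, each of those pairs alone, only the groups compared, and each library left out. Members, gene lists and tests were chosen with earlier results of these data known. The classes of histone genes by symbol and of small nuclear RNAs were formed after the values were seen. Genes named are those called, whose mean log2 CPM reached 3 and with libraries that do not overlap, that had the 12 largest rises or falls, up to 4 called members per list by smallest p, the 5 largest values in each direction of the other 2 contrasts, and a fixed set (CHEK1, MUS81, EME1, the dynamin genes, MYCN, CDKN1A and MALAT1). The text gives a subset of these, some genes are not reported here, and genes without a call, HSPA6, HSPA1A, RNVU1-31, RNU4-1 and others beyond the rule were chosen after their values were seen. Promoter windows are RefSeq's on GRCh38.p14, 10002 of them matched to tested genes by symbol.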

Additional observations from a re-analysis of the deposited data

Results flagged for a closer look

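In all, 188 groups of 4 libraries were examined, for the genes named and for library measures such as total counts. Of these 8 held 1 library far from the other 3, and chance alone would give this in about 1 of 20 groups. In the combination group the fourth library was low for FGFRL1 (7.25 CPM, others 9.10 to 9.31) and for ASNS (2.18 CPM, others 3.63 to 3.79). The third was high for DDIT3 (39.9 CPM, others 30.2 to 31.7), and the second for E2F1 (99.8 CPM, others 83.8 to 85.0). The first was high for the linker histone gene H1-5 (32.2 CPM, others 18.1 to 19.1) and for DNM3 (9.77 CPM, others 4.65 to 5.08). In the prexasertib group the fourth library was low for HSPH1 (659 CPM, others 758 to 768) and the third for RNVU1-31 (2.18 CPM, others 2.61 to 2.66).

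Of the genes named, 24 had a change on adding Dyngo-4a to prexasertib that differed from the low-dose change by edgeR's test of the difference (adjusted p below 0.05 over all tested genes). Values are the first change minus the second on the log2 scale. Among p53 targets and stress genes the excess was 1.79 for PLK3, 1.47 for PLK2, 1.26 for FDXR, 1.21 for DDB2, BBC3 and SESN2, 1.16 for ATF3 and 1.07 for GDF15. It was 1.39 for STK17A, 0.84 for METTL7A, 0.74 for TXNIP and 0.57 for TOP2A. Histone genes had 2.90 (H4C5), 1.97 (H2BC21), 1.84 (H2BC8) and 1.04 (H2BC5), and RNVU1-31 had 2.97. The chaperones had 1.31 (HSPA1B) and 0.96 (DNAJB1). ETV5 had 1.81, the potassium channel gene KCNC4 1.44 and the reductase gene DHRS2 0.90. The 2 negative values were −0.78 for the channel gene KCNK2 and −0.69 for DTL. Leaving out a single library ended the call for FDXR, ATF3, TOP2A, H2BC5, H2BC21, ETV5, KCNC4, KCNK2 and DHRS2.

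Against the high-dose change, 29 of the genes named differed. Chaperones had values of 2.55 (HSPA1B), 1.46 (DNAJB1), 0.70 (HSPA4L), 0.58 (HSPH1) and 0.48 (FKBP4). Histone genes had 2.63 (H2AC11), 2.62 (H4C5), 1.92 (H1-5), 1.85 (H2BC21) and 1.24 (H2BC8), and RNVU1-31 had 2.42. Mitotic genes had 0.87 (UBE2C), 0.64 (CENPE) and 0.39 (TOP2A). Other positive values were 1.68 for DHRS2, 1.5 for DDB2, 1.18 for KCNC4, 1.02 for GCLM, 0.96 for IGFBP5, 0.85 for EME1, 0.71 for MEG3 and 0.48 for HAND1. Negative values were −2.98 for ASNS, −2.53 for CHAC1, −1.64 for TXNIP, −1.61 for SLC7A11, −1.40 for DDIT3, −1.38 for ALDOC and −0.96 for ATF4. Leaving out a single library ended the call for TOP2A, FKBP4, ALDOC, HAND1 and KCNC4. The dose of Dyngo-4a in the combination is not stated, so dose and the presence of prexasertib cannot be told apart in either set.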

How the results depend on the processing

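The 472 calls of combination against prexasertib became 1374 with the replicate block, 909 with a term setting replicates 1 and 3 apart from 2 and 4, and 104 with replicates 2 and 4 alone. With single libraries left out they numbered 309 (without the first combination library) to 474. DESeq2 gave 683 calls, 406 higher and 277 lower. The 39 genes that differed from the low-dose change became 65 with no low-count filter, 72 in DESeq2, 167 with the block, 93 with the term for replicate pairs and 1 with replicates 2 and 4 alone, and 29 to 57 with single libraries left out. The 864 that differed from the high-dose change became 1964 with the block, 1486 with the term, 346 with replicates 1 and 3 and 335 with replicates 2 and 4, and 630 to 841 with single libraries left out. The cause of these shifts was not tested, except that the pairs alone have fewer libraries.

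No named gene that passed the test in a comparison changed sign there under any of these alternatives. Between combination and prexasertib ASNS, ATF4, CHEK1, DNM2 and DNM3, which did not pass the test, changed sign under some. In that comparison the block brought CCNG1, BAX, ETV5 and MALAT1 past the threshold and ended no named call. It brought 20 more named genes past the threshold in the difference from the low-dose change and 9 in that from the high-dose change, and ended 0 calls in either. Other scaling moved the median log2 ratio of all genes by at most 0.0082. Depth limits the genes at a few CPM, such as FAS, EPHA2 and RNU4-1, where 3 counts are up to 0.684 CPM.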

Other observations

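Other gene lists showed few calls between the combination and prexasertib. Of 33 tested proteasome subunits, 29 nuclear-encoded respiratory chain genes, 22 endoplasmic reticulum stress genes and 7 ligands of natural killer cells, none was called by edgeR's test at an adjusted p below 0.05. At an unadjusted p below 0.05 there were 11, 0, 5 and 1 in these lists, and DESeq2 called 2, 0, 1 and 1 lower, while limma-voom called 0 in each. With the replicate block 8 proteasome subunits, 5 endoplasmic reticulum stress genes and 1 ligand gene were called lower. Of 8 tested subunits of the CCT chaperonin, which folds actin and tubulin, 1 was called lower (12.5%, against 3.44% of all tested genes called). That call was lost without any of 6 of the 8 libraries, all but the first prexasertib and the fourth combination library, and 4 were called lower with the block. Of 27 tested cholesterol synthesis genes 2 rose (7.41% called, against 3.44% of all tested genes), and with the block 5 rose and 2 fell. Of 6 listed targets of the glucose sensor MondoA 2 rose (33.3%, against 3.44% of all tested genes called), TXNIP among them.

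Of 29 tested neuronal cytoskeleton and synapse genes 3 rose (10.3% called, against 3.44% of all tested genes). Their number was 1 without the third prexasertib, the first combination or the fourth combination library, 0 with replicates 2 and 4 alone and 7 with the block. Of 15 tested catecholamine genes 2 rose (13.3% called, against 3.44% of all tested genes). Among the 14 that would have passed the filter without the combination libraries 1 rose. No gene of this list was called without the third prexasertib or the first combination library or with replicates 2 and 4 alone. There was 1 call without the first or the second prexasertib library or the second or the third combination library, and 6 were called with the block.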
